A study of Schizosaccharomyces pombe with 18 samples.

Results

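RNA of fission yeast (Schizosaccharomyces pombe) lacking clr1 was compared with wild-type RNA in 6 libraries, 3 of each genotype. A gene or transcript entered the comparison when its deposited FPKM (fragments per kilobase of transcript, scaled to the size of the library) was at least 1 in 3 or more of these 6 libraries. Of 7018 annotated rows, 6650 met this rule: 5018 protein-coding genes, 1435 transcripts annotated as non-coding RNAs, and smaller classes. Most of them, 6544, had an FPKM of at least 1 in all 6 libraries. Only 13 passed through the clr1D libraries alone and 2 through the wild-type libraries alone, and those rows had to differ. The row just inside the rule, SPNCRNA.1463, had FPKM 1.1404, 0.7433 and 1.0033 in wild type and 1.8045, 0.7227 and 0.6839 in clr1D; just outside, SPNCRNA.313 had 0.6739, 0.4746 and 0.3549 against 1.0496, 1.0794 and 0.9867. Another 85 rows were listed at 0 in all 6 libraries.

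Clr1 is a zinc finger protein of SHREC, a nuclear complex that removes acetyl groups from histone H3 and remodels nucleosomes where fission yeast keeps its DNA silent: at centromeres, at the mating-type region and near chromosome ends. Within the complex, Clr3 is the histone deacetylase and Mit1 the Snf2-family remodeler, Chp2 is a protein of the HP1 family that binds methylated histone H3, and Clr1 and Clr2 link the catalytic subunits. Loss of SHREC subunits is known to raise transcription from heterochromatin, and SHREC has also been found at genes outside it.

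The study grew 6 genotypes in 3 biological replicates each, 18 libraries in all: wild type and deletions of clr1, clr2, clr3, mit1 and chp2. Wild type was strain PY 42, of mating type h-, with the marker alleles ura4-D18 and leu1-32, his3-D1 and arg3-D4, and ade6-210. The clr1D strain was PY 9666, h- with clr1D::KanMX4, leu1-32, ura4-D18, alleles written arg3D and his3D, and an ade6 allele that the label gives as 210 or 216 with a question mark. The clr2D strain (PY 9670, clr2D::his7+ with ade6-216) and the clr3D strain (PY 9662, clr3D::kanMX6 with ade6-210) list arg3D, his3D, leu1-32 and ura4-D18 as well. The mit1D strain (PY 9841, mit1D::Natmx6) and the chp2D strain (PY 9844, chp2D::KanR) carry the wild-type strain's marker alleles. Each genotype was 1 strain, so the deletion and any other difference between strain backgrounds cannot be told apart. All cultures of 25 ml were grown in YES, a rich medium, at 25 °C with shaking at 170 rpm. Ribosomal RNA was depleted and stranded libraries of total RNA were sequenced.

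Depth, recovered from the deposited values, was 77.47, 46.54 and 101.85 M reads (M for mega) in wild-type replicates 1 to 3 and 74.62, 35.35 and 52.91 M in clr1D. Levels below are FPKM divided by a scaling factor for each library (scaled FPKM), with SD over n = 3. Changes are log2 differences of scaled FPKM + 1, clr1D minus wild type, with SE, so they understate the ratio for genes near 0. Adjusted p values are from limma with the replicate number as a block, over all 6650 rows, and a gene is said to rise or fall at an adjusted p under 0.05. Positions are those of the deposited table, build ASM294v2. It is not known whether the counting used strand, so reads of overlapping genes cannot be told apart.

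The deleted gene was at a residual level. The scaled FPKM of clr1 (SPBC2D10.17, chromosome II, 2997081 to 3001136) was 13.8, 12.5 and 13.3 in wild type and 2.46, 2.64 and 2.25 in clr1D, a mean of 2.45 ± 0.198 against 13.2 ± 0.656 (log2 change -2.04 ± 0.07, adjusted p = 0.00015). All 3 clr1D libraries lay well below all 3 wild-type libraries, in the direction of the labelled deletion. Of the other SHREC genes, clr2 (SPAC1B3.17) rose from 19.9, 19.7 and 20.7 to 27.8, 26.7 and 28.1 (log2 change 0.44 ± 0.03, adjusted p = 0.0013). The levels of clr3, mit1 and chp2 gave log2 changes of 0.02 ± 0.03, 0.00 ± 0.03 and 0.06 ± 0.04 and overlapped between the groups. Beside the deletion, mhf1, whose product is a histone-fold protein of DNA repair, rose from 34.2 ± 1.16 to 41.9 ± 0.679 (adjusted p = 0.008) together with the overlapping SPNCRNA.1569, which rose from 24.8 ± 0.839 to 33.6 ± 1.24 (adjusted p = 0.0043).

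Across the genome, 1122 of 6650 rows (16.9%) changed: 599 rose (9.01%) and 523 fell (7.86%), so that 53.4% of the calls were rises. This split depends on the scaling: without any scaling between libraries 994 rose and 325 fell (75.4% rises), with the median of all rows at a log2 difference of 0.0378 in place of -0.00172. Without the replicate block 543 rows changed, 312 upwards and 231 downwards, and with 1 pair left out between 507 and 658. Most changes were small, with a median size of 0.241 on the log2 scale. On that scale 34 rises and 20 falls reached 2-fold. Some of these 34 rises had passed the inclusion rule through clr1D alone, so they had to differ. They include tlh2, SPAC212.10, SPAC212.06c, SPBCPT2R1.07c, SPBCPT2R1.10 and the 5 tested centromeric rows. All 1122 moved the same way in all 3 pairs, and in 960 of them the ranges of the groups did not overlap, as they also did not in 1065 rows of all tested with clr1D above and 1011 with clr1D below wild type. The 54 rows at 2-fold lay in 34 stretches of the genome (rows under 5 kb apart joined), of which 14 held more than 1 row and 34 of the rows between them.

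**Figure D1:**
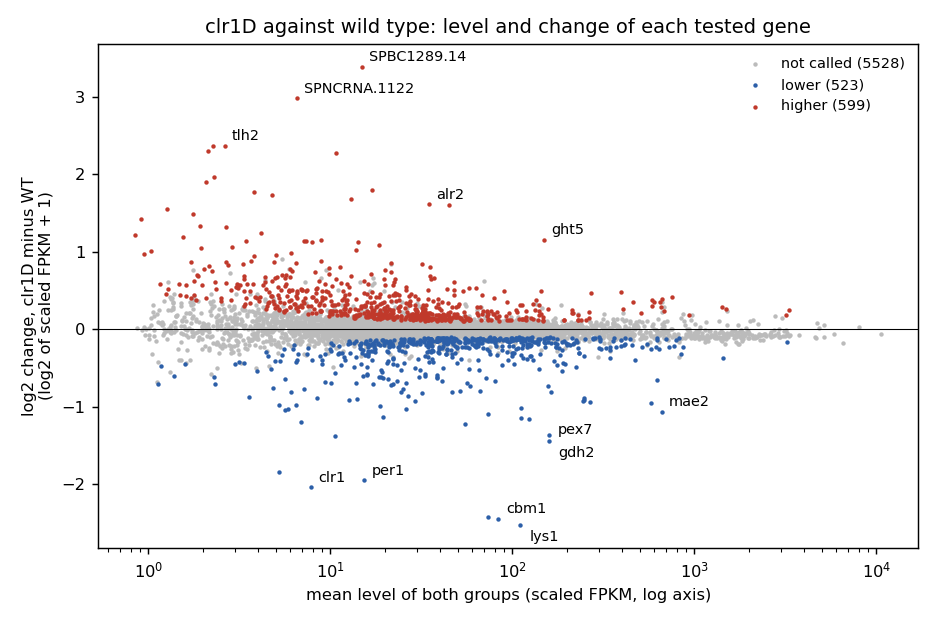
Mean level of each of the 6650 tested rows over both groups (x axis, scaled FPKM, log scale) against its log2 change, clr1D minus wild type (y axis). Red points are the 599 rises, blue points the 523 falls and grey points the rows not called; lys1, cbm1, prm1 (not named in the plot), clr1 and per1 lie lowest and SPBC1289.14 and SPNCRNA.1122 highest.

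The largest rise on the log2 scale of scaled FPKM + 1, though not by ratio, was in SPBC1289.14 (chromosome II, 4412072 to 4413599). This protein-coding gene had scaled FPKM 1.95, 1.69 and 1.65 in wild type and 31.3, 24.1 and 28.7 in clr1D. The mean of 28.0 ± 3.63 was 15.9 times the wild-type mean of 1.76 ± 0.162 (log2 change 3.39 ± 0.07, adjusted p = 6.8e-05), and every clr1D library stood far above every wild-type library. Just downstream, the Tf2-11 retrotransposon (4414657 to 4418658) rose from 3.74, 5.95 and 4.26 to 10.1, 11.8 and 11.9 (log2 change 1.13 ± 0.09, adjusted p = 0.0021). Tf2-11 was the only 1 of 13 annotated Tf2 copies that met the inclusion rule, and reads of near-identical copies may be split among them. The window of 250 bases before the annotated start of SPBC1289.14 is shown because it holds, in capitals, ATGACGT, the core of the M26 or CRE element bound by the stress factor Atf1; this match begins 49 bases before the start. It was read from chrII:4411991-4412240 of the RefSeq assembly ASM294v3, plus strand. The RefSeq start of the gene, 4412241, differs from the start of 4412072 in the deposited table, an earlier build and annotation, so the window and the match may lie inside the transcript as deposited.
SPBC1289.14: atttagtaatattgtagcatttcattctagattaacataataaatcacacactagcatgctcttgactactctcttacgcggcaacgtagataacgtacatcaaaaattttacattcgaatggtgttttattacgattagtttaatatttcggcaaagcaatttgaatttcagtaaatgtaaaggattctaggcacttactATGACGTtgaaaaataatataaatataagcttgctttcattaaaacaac
The letters ATGACGT, on either strand between 250 bases before and 50 bases after the start, were in 144 of 12605 annotated promoters (1.14%), in 105 of 6490 promoters of tested rows (1.62%), in 21 of 568 promoters of rows that rose (3.7%) and in 8 of 501 of rows that fell (1.6%). A match is a description of the sequence and not a site of binding.

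SPNCRNA.1122, a non-coding RNA inside the left arm of chromosome III (258116 to 258797), had scaled FPKM 1.15, 0.392 and 0.598 in wild type and 13.2, 12.7 and 11.1 in clr1D, 17.3 times higher (log2 change 2.98 ± 0.12). Just the first wild-type library reached an FPKM of 1. The row therefore met the inclusion rule only with the clr1D libraries, where it was high, and its values are a description. The neighbouring protein-coding gene SPCC794.06 (259301 to 262485) rose as well, from 22.6 ± 0.26 to 41.2 ± 2.51 (log2 change 0.84 ± 0.04, adjusted p = 0.00035). On chromosome II, alr2, which encodes an alanine racemase (107583 to 109353), had 13.4, 21.5 and 13.6 in wild type and 38.2, 78.3 and 42.7 in clr1D (log2 change 1.61 ± 0.07, adjusted p = 0.00036). Replicate 2 was the highest library of its group in both genotypes, so the change within each pair was steadier than the spread within a group. The overlapping SPNCRNA.1309 followed it, at 21.0 ± 5.69 against 68.1 ± 29.2, and the reads of this pair cannot be told apart.

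**Figure D2:**
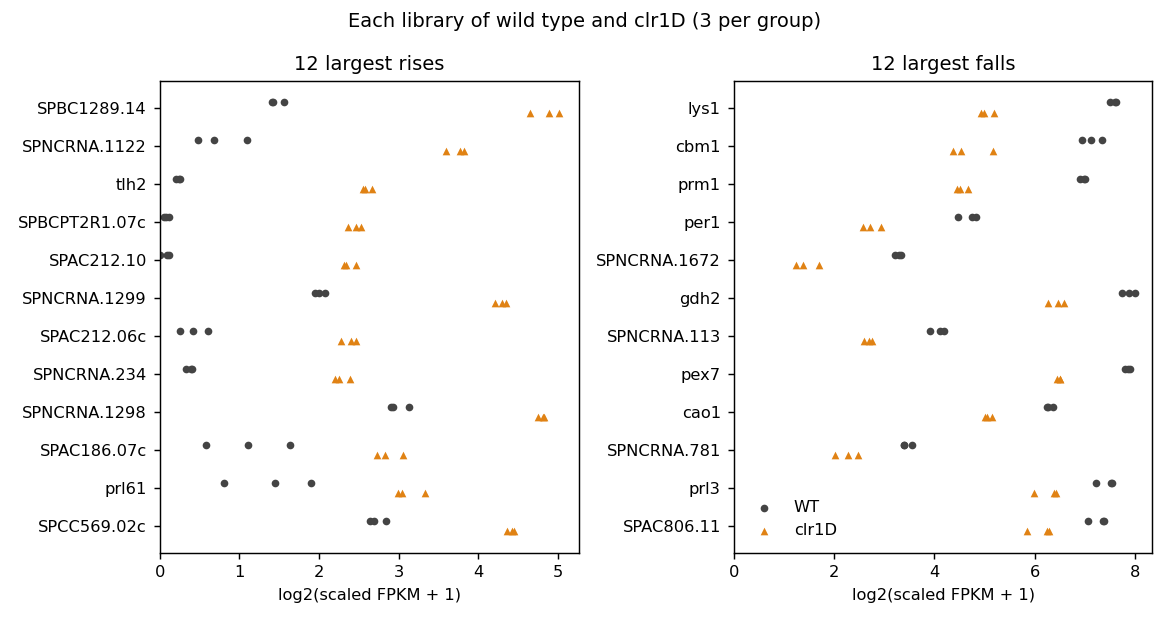
Each library of wild type (grey circles) and clr1D (orange triangles), as log2 of scaled FPKM + 1 on the x axis, for the 12 largest rises (left) and the 12 largest falls (right) apart from clr1. In all 24 rows the 3 triangles lie on 1 side of the 3 circles. The rows were chosen for their change, and 5 of the 12 rises had passed the inclusion rule through clr1D alone. SPNCRNA.1122 and SPAC186.07c also needed clr1D libraries to meet the rule, so the separation is a description.

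Rises were more frequent near the chromosome ends. Within 100 kb of the 6 ends, 212 of 297 annotated rows were tested, of which 71 rose and 21 fell; 6 of the tested rows had passed the inclusion rule through the clr1D libraries alone. By distance, 12 of 14 rows were called higher within 20 kb, of which 5, with all 3 on chromosome II, had passed through clr1D alone; of the other 9 rows there, 7 rose. Calls upwards were 29 of 54 between 20 and 50 kb, 30 of 144 between 50 and 100 kb and 64 of 341 between 100 and 200 kb (18.8%), against 450 of 6054 rows farther in (7.43%). With 1 pair left out, between 49 and 59 of the rows within 100 kb rose. With an FPKM of at least 1 in all 6 libraries, 56 rose and 20 fell within 100 kb. On chromosome III none of the 98 tested rows within 100 kb of an end had passed through clr1D alone. Of these 98 rows 37 rose and 4 fell, 20 and 0 on the left and 17 and 4 on the right. With an FPKM of at least 1 in all 6 libraries, 35 rose and 4 fell there. By distance on this chromosome 4 of 5 rows rose within 20 kb, 20 of 32 between 20 and 50 kb, 13 of 61 between 50 and 100 kb, 13 of 106 between 100 and 200 kb and 74 of 1014 farther in (7.3%).

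On the left of chromosome III, SPCP20C8.03 (32624 to 33393) rose from 11.8, 11.2 and 11.5 to 26.8, 24.9 and 25.0 (log2 change 1.09 ± 0.03, adjusted p = 0.0001), and SPCP20C8.02c beside it from 6.93 ± 0.857 to 12.7 ± 0.161 (adjusted p = 0.0033). In both genes the groups were far apart and replicates of clr1D nearly equal. The meiotic non-coding RNA meu3 (41985 to 42728) rose from 1.41, 2.46 and 2.38 to 6.23, 5.21 and 7.28 (log2 change 1.24 ± 0.15, adjusted p = 0.0073). The nickel transporter gene nic1, slightly farther from the end, rose by less, from 30.0 ± 1.35 to 35 ± 1.14 (adjusted p = 0.017).

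On the right of chromosome III, SPNCRNA.1299 (2448764 to 2449506) rose from 2.87, 3.0 and 3.23 to 17.5, 18.7 and 19.5, which was 6.12 times higher (log2 change 2.28 ± 0.04, adjusted p = 6.8e-05). SPCC569.02c (2432505 to 2433520) rose from 5.25, 6.18 and 5.47 to 19.6, 20.9 and 20.6 (log2 change 1.69 ± 0.04, adjusted p = 9.2e-05), with SPNCRNA.1298 within the same stretch at 6.99 ± 0.706 against 26.8 ± 0.863. SPCC569.03, the next gene inwards, rose from 17.6 ± 0.653 to 27.4 ± 0.82 (adjusted p = 0.00051). Among these 4 rows the change was largest nearest the end and smallest in SPCC569.03. The 4 falls on this side were nsa2, pcs60, mug9 and SPRRNA.52; the latter, a ribosomal RNA row at 9.80, 2.84 and 6.64 in wild type and 4.11, 1.55 and 3.99 in clr1D, overlapped between the groups and was not called without the replicate block (adjusted p = 0.298).

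**Figure D3:**
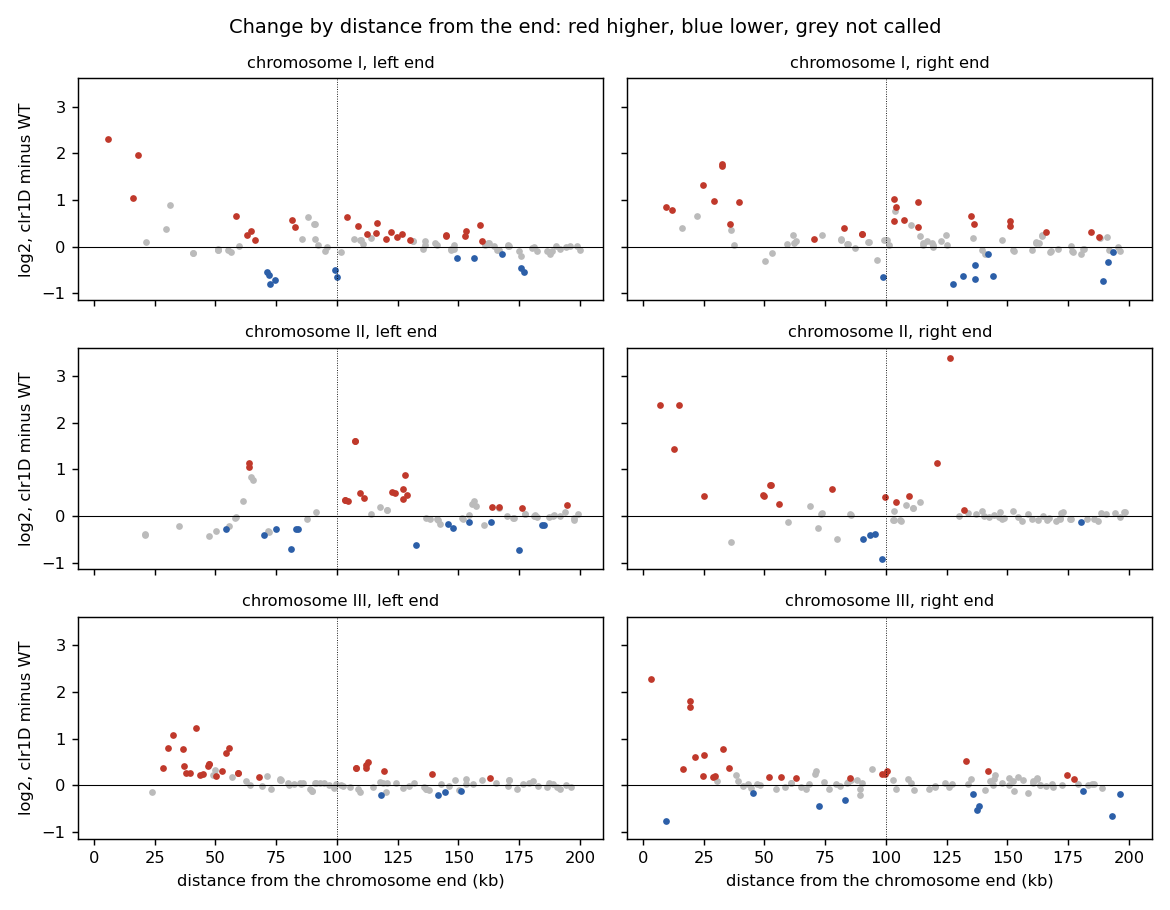
Log2 change, clr1D minus wild type (y axis), of each tested row within 200 kb of the 6 chromosome ends, against its distance from the end of the assembled chromosome in kb (x axis); red rose, blue fell, grey not called. The rises are densest in the first 50 kb and on both sides of chromosome III, and the left end of chromosome II has more falls than rises.

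At the ends of chromosomes I and II several genes went from near 0 to measurable levels. tlh2, a telomere-linked helicase gene of the RecQ type (chromosome II, 4526885 to 4532899), was at 0.149, 0.189 and 0.182 in wild type and 4.88, 5.36 and 4.98 in clr1D, 29.3 times higher, on 231 and 5018 reads in all. Its relative tlh1 at the left end of chromosome I stayed under the inclusion rule: 0.0113, 0.00788 and 0.0141 in wild type and 0.592, 0.574 and 0.574 in clr1D, on 15 and 549 reads. SPAC212.10 (chromosome I, 5726 to 6331) had 0.0635, 0 and 0.0821 in wild type and 4.52, 4.05 and 3.97 in clr1D, and SPBCPT2R1.07c (chromosome II, 4523274 to 4524970) had 0.0605, 0.0394 and 0.0821 against 4.55, 4.17 and 4.75. These helicase and neighbouring sequences are repeated between chromosome ends, so their reads may come from several copies. tlh2, SPAC212.10, SPAC212.06c, SPBCPT2R1.07c and SPBCPT2R1.10 were among the 13 rows that passed through clr1D alone, so their values are a description.

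At the right end of chromosome I the rises included a gene of fermentation. pdc102, for a pyruvate decarboxylase (5552811 to 5554529), rose from 1.39, 0.855 and 1.08 to 4.35, 3.96 and 4.46 (log2 change 1.33 ± 0.09, adjusted p = 0.0016). SPAC186.07c (5545615 to 5546613) rose from 2.11, 0.491 and 1.17 to 7.33, 5.65 and 6.12 (log2 change 1.77 ± 0.15, adjusted p = 0.0027), along with the overlapping non-coding RNA prl61. In pdc102 and SPAC186.07c wild-type replicate 2 was under an FPKM of 1, so both met the inclusion rule only with clr1D libraries. In the fit used here only the left end of chromosome II had more falls than rises called, 6 against 2 of 23 tested rows. Over all rows 7.86% fell and 9.01% rose. At that end 3 fell and 0 rose without the block. Without pair 1, 2 or 3 the falls numbered 5, 8 and 3 and the rises 0, 0 and 4, so the direction turned without pair 3. The difference between ends was not tested. SPBPB10D8.01 (80899 to 83357) fell there from 17.4, 26.3 and 20.7 to 10.3, 16.3 and 12 (log2 change -0.70 ± 0.03, adjusted p = 0.00051; 0.0633 without the block). Both rises at that end, SPNCRNA.1303 and SPNCRNA.289, overlap each other, overlapped between the groups and were lost without the block (adjusted p = 0.312 and 0.246) and when pair 1 or pair 2 was left out (0.08 to 0.139). Falls were also seen on the separate contig that the table calls T: 4 of its 5 genes fell, beside 7.86% of all rows, among them SPBC460.05, from 13.2, 22.7 and 14.6 to 6.59, 11.4 and 7.39 (log2 change -0.91 ± 0.04, adjusted p = 0.00029).

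Centromeric intervals hold 54 annotated rows, of which 5 were tested, and all 5 had entered through the clr1D libraries alone, so their values are a description. SPNCRNA.234, in centromere 1 (3786105 to 3787136), was at 0.311, 0.259 and 0.328 in wild type and 3.75, 3.62 and 4.23 in clr1D. In centromere 1 as well, SPNCRNA.232 was at 0.147 ± 0.0992 against 2.37 ± 0.172 and SPNCRNA.231 at 0.108 ± 0.0222 against 1.58 ± 0.219. In centromere 2, SPNCRNA.359 was at 0.55 ± 0.0775 against 2.55 ± 0.184 and SPNCRNA.373 at 0.452 ± 0.174 against 3.08 ± 0.466. All clr1D libraries exceeded all wild-type libraries in these 5 rows, and the levels in clr1D remained low for this genome. In the mating-type region 15 of 22 rows were tested. None rose and 2 fell, beside 7.86% of all rows. The falls were in snR92 (82.4, 89.4 and 103 to 68.5, 76.6 and 71.0) and the overlapping SPNCRNA.1487 (19.3 ± 1.29 to 16.0 ± 0.569), with adjusted p = 0.027 and 0.026. The call of snR92 was lost without the block and without pair 1 (adjusted p = 0.0511 and 0.0542), that of SPNCRNA.1487 without pair 2 or pair 3 (0.0543 and 0.0806).

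The largest falls were gathered in a few stretches of chromosome I. lys1, for the aminoadipate reductase of lysine synthesis (3739076 to 3743492), fell from 192, 194 and 181 to 29.4, 30.9 and 35.5 (log2 change -2.53 ± 0.07, adjusted p = 9.6e-05). prm1 covers lys1 entirely and fell alongside, from 124 ± 4.59 to 22.4 ± 1.96. per1, an amino acid permease gene (3748767 to 3751729), lies between lys1 and the centromere 1 rows just described and fell from 27.6, 25.9 and 21.2 to 5.56, 6.63 and 4.94 (log2 change -1.95 ± 0.07, adjusted p = 0.00015). In all 3 rows the clr1D libraries lay far below every wild-type library. Of the 7 lysine biosynthesis genes 1 was called, lys1 (14.3%, near the 16.9% of all rows). The log2 changes of lys2, lys3, lys4, lys7, lys9 and lys12 lay between -0.08 ± 0.03 (lys7) and 0.20 ± 0.08 (lys12). These genes did not pass, although lys12 was called higher without pair 1.

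The second stretch held cao1, for a copper amine oxidase (2931763 to 2935115), and cbm1, the gene that follows it without a gap (2935116 to 2937079). cao1 fell from 74.4, 81.3 and 75.4 to 32.0, 34.2 and 31.3 (log2 change -1.22 ± 0.03, adjusted p = 7.3e-05). cbm1 fell from 139, 161 and 121 to 19.6, 35 and 22.1 (log2 change -2.45 ± 0.11, adjusted p = 0.00036). The non-coding RNAs around them moved the same way: SPNCRNA.861 fell from 41.0 ± 2.89 to 22.7 ± 0.702, SPNCRNA.862 from 319 ± 32.5 to 168 ± 22.5 and SPNCRNA.863 from 350 ± 37 to 184 ± 26.1, and SPNCRNA.860, which overlaps cao1, from 27.1 ± 1.67 to 11.9 ± 0.385.

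Other large falls lay elsewhere in the genome. gdh2, for the NAD-dependent glutamate dehydrogenase, fell from 212, 256 and 234 to 86.8, 76.1 and 94.2 (log2 change -1.44 ± 0.09, adjusted p = 0.0012). pex7, for the receptor that brings enzymes into peroxisomes, fell from 231, 236 and 222 to 85.9, 89.5 and 89.0 (log2 change -1.37 ± 0.03, adjusted p = 7.3e-05). In both genes the groups were separated by more than any spread within them. The malic enzyme gene mae2 fell from 719, 1032 and 936 to 352, 432 and 496 (log2 change -1.06 ± 0.07, adjusted p = 0.001). The malate permease gene mae1 fell by less, from 164 ± 17 to 115 ± 3.98 (adjusted p = 0.0039). On the right arm of chromosome II, the non-coding RNAs SPNCRNA.1672 (4128866 to 4129750) and SPNCRNA.113 (4129796 to 4130288) fell from 8.71 ± 0.362 to 1.73 ± 0.46 and from 15.8 ± 1.66 to 5.43 ± 0.319, with adjusted p = 0.0012 and 0.00051. Next to them abp2, for a protein that binds replication origins, fell from 11.8, 11.1 and 11.0 to 6.21, 5.15 and 5.62 (log2 change -0.89 ± 0.05, adjusted p = 0.00081). The stretch around SPAC806.11 on chromosome I was the only 1 of the 34 with both directions: SPAC806.11 and the overlapping prl3 fell, SPAC806.11 from 166, 164 and 133 to 75.2, 77.1 and 56.8, while SPNCRNA.627 beside them rose from 4.88, 3.62 and 4.10 to 10.4, 11.0 and 9.83.

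Whether these changes belong to clr1D or are shared was tested directly against the clr2D and clr3D libraries in 1 fit of 12 libraries. Against clr2D, 35 of 6650 rows differed (0.526%), 7 higher and 28 lower in clr1D; against clr3D, 2929 differed (44.0%), 1489 higher and 1440 lower. Of the 34 rises at 2-fold over wild type, some of which had passed the inclusion rule through clr1D alone, 1 differed from clr2D and 21 from clr3D. Of the 19 falls at 2-fold apart from clr1, 8 differed from clr2D and 15 from clr3D. Comparisons of each deletion with wild type use the same wild-type libraries, so only levels are set beside each other here.

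Against clr2D the differences gathered in a few places. The cao1 to cbm1 stretch gave 7, all lower in clr1D. The cao1 level was 32.5 ± 1.53 in clr1D and 71.0 ± 3.21 in clr2D (log2 difference -1.10 ± 0.02, adjusted p = 3.9e-09), with 80.2 in clr3D, 36.9 in mit1D and 34.8 in chp2D beside 77.0 in wild type. For cbm1 the order was another one: 25.6 in clr1D, 55.5 in clr2D, 53.8 in clr3D, 133 in mit1D and 125 in chp2D, with clr1D below clr2D by -1.10 ± 0.10 on the log2 scale (adjusted p = 0.00038). Adjacent genes therefore had different sets of low deletions, cao1 with clr1D, mit1D and chp2D and cbm1 with the 3 clr deletions; differences from mit1D and chp2D were not tested.

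The lys1 to per1 stretch gave 3 more. lys1 stood at 31.9 in clr1D, 139 in clr2D, 194 in clr3D, 264 in mit1D and 254 in chp2D, beside 189 in wild type; clr1D was below clr2D by -2.09 ± 0.08 (adjusted p = 4.2e-07) and below clr3D by -2.56 ± 0.08 (adjusted p = 5e-08). per1 stood at 5.71 in clr1D, 13.3 in clr2D, 31.5 in clr3D, 51.8 in mit1D and 46.6 in chp2D (clr1D minus clr2D -1.09 ± 0.06, adjusted p = 5.4e-06). Both genes were thus lowest in clr1D and above the wild-type mean in mit1D and chp2D. A smaller difference held for pex7, at 88.2 in clr1D and 109 in clr2D (-0.30 ± 0.03, adjusted p = 0.00058), together with SPNCRNA.1018 beside it.

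The remaining differences from clr2D lay mostly at altered loci and near the silent mating cassettes. At the clr1 locus, mhf1, pth1 and SPNCRNA.1569 were higher and clr1 lower in clr1D, clr2 was higher, and the clr2D marker his7 with its neighbours ccc2 and gid2 was lower in clr1D, his7 at 148 ± 5.3 against 342 ± 10.6. In and next to the mating-type region 10 rows were lower in clr1D than in clr2D, among them rpt6, for a proteasome subunit, at 115 ± 4.84 against 171 ± 11 (adjusted p = 3.7e-06) beside 110 ± 2.55 in wild type. chk1, for a DNA damage checkpoint kinase, and the overlapping meu27 were higher in clr1D than in clr2D, chk1 at 11.0 ± 0.289 against 8.77 ± 0.292 with 15.8 ± 0.572 in wild type. Elsewhere SPBCPT2R1.07c was higher (4.49 ± 0.298 against 2.10 ± 0.216) and SPBPJ4664.02 and SPNCRNA.1317 were lower in clr1D.

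By contrast several of the largest changes did not differ detectably between clr1D and clr2D. SPBC1289.14 stood at 28.0 in clr1D and 29.4 in clr2D (log2 difference -0.06 ± 0.08), and gdh2 at 85.7 and 90.5 (-0.08 ± 0.09). Against clr3D these genes differed: SPBC1289.14 was at 37.6 there (-0.42 ± 0.08, adjusted p = 0.0023) and gdh2 at 145 (-0.75 ± 0.09, adjusted p = 0.00019). In mit1D and chp2D SPBC1289.14 was at 0.474 and 0.433, under the wild-type 1.76. alr2, at 53.1 in clr1D, 45.9 in clr2D and 27.8 in clr3D, was higher in clr1D than in clr3D by 0.89 ± 0.07 (adjusted p = 2e-05), with 61.7 in mit1D and 64.6 in chp2D.

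**Figure D4:**
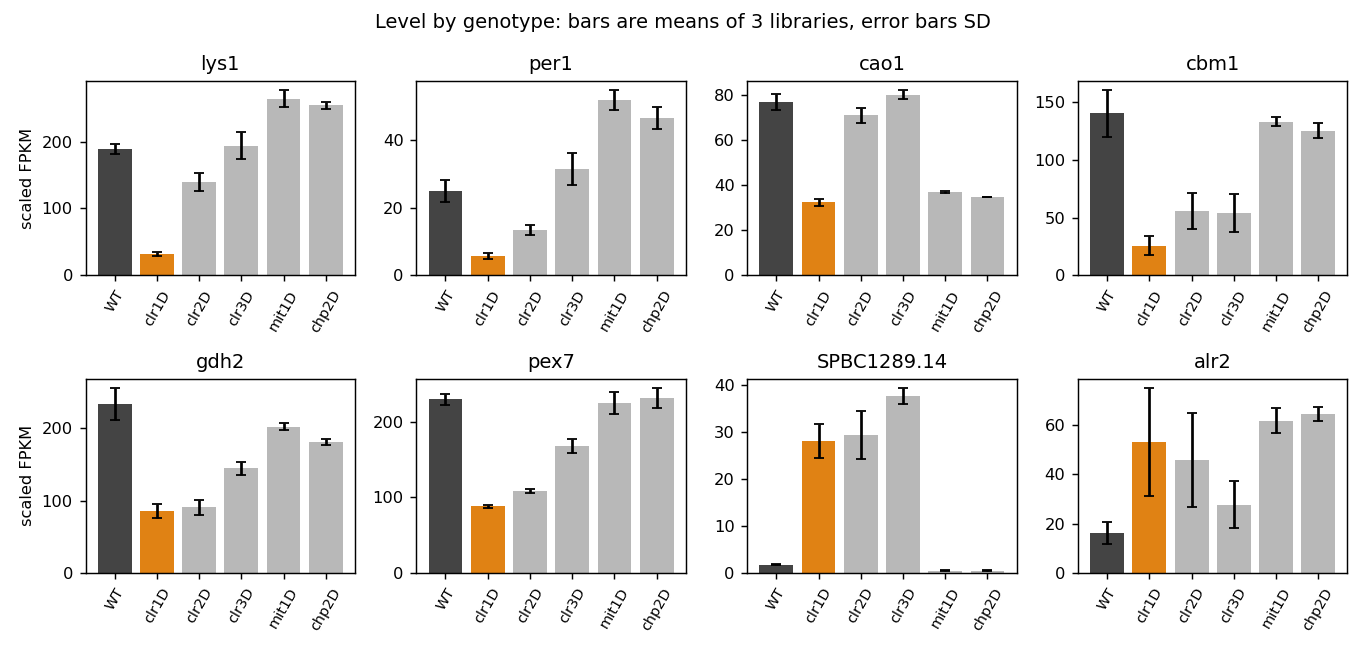
Mean scaled FPKM (bars, from 0) with SD (error bars, n = 3) of 8 genes in wild type (dark grey), clr1D (orange) and the other 4 deletions (light grey). lys1 and per1 are lowest in clr1D, cao1 is low in clr1D, mit1D and chp2D, and SPBC1289.14 stands between 28.0 and 37.6 in the 3 clr deletions and at 1.76 or under in the other groups.

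Among genes of mating and sexual differentiation falls were frequent. Of 15 tested, 7 fell, beside 7.86% of all rows, and none rose, with a median log2 change of -0.196 (-0.156 unscaled, -0.219 with quantile scaling). The number that fell was 3 without the replicate block and 1, 4 and 3 with pair 1, 2 or 3 left out. ste11, for the transcription factor that switches on mating genes, fell from 41.0, 21.1 and 25.4 to 21.6, 16.6 and 14.1 (log2 change -0.67 ± 0.11, adjusted p = 0.019); the groups overlapped, replicate 1 was highest in both, and the call was lost without the block (adjusted p = 0.137) or without pair 1 (0.0531). mei2, for the RNA-binding protein that starts meiosis, fell from 16.2, 9.72 and 12.3 to 7.81, 7.61 and 6.69 (log2 change -0.69 ± 0.13, adjusted p = 0.024; 0.0633 without pair 1 and 0.0669 without pair 3). ste4, for an adaptor of the pheromone MAP kinase cascade, fell from 13.5, 12.4 and 12.2 to 10.1, 6.90 and 8.11 (log2 change -0.56 ± 0.08, adjusted p = 0.011).

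Smaller falls were found in other genes of the pheromone pathway: rgs1, a regulator of G protein signalling (log2 change -0.34 ± 0.06), spk1 and byr1, the MAP kinase and its kinase (-0.21 ± 0.03 and -0.20 ± 0.04), and gpa1, the G protein alpha subunit (-0.19 ± 0.04), with adjusted p between 0.016 and 0.036. Not all of the listed mating genes fell: ste6 and fus1 had log2 changes of -0.01 ± 0.06 and 0.00 ± 0.05 and did not pass. All strains are labelled h-, the M mating type. Of 8 genes of M cells 2 fell, beside 7.86% of all rows, and none rose. mfm2, an M-factor pheromone gene, fell from 99.2, 106 and 95.1 to 57.5, 39.1 and 44.0 (log2 change -1.09 ± 0.11, adjusted p = 0.0053) and mam4, for the methyltransferase of the pheromone, from 42.8 ± 1.72 to 36.2 ± 2.14 (adjusted p = 0.0098). The other M-factor genes mfm1 (log2 change 0.15 ± 0.07) and mfm3 (-0.05 ± 0.09) did not pass, and none of 5 genes of P cells passed in the fit used here, with 2 of the 5 at an unadjusted p under 0.05. Other settings did call P-cell genes: map1, for a transcription factor of P cells, was lower in the 12-library fit, with quantile scaling, with no filter and by limma-voom on the recovered reads, and sxa1, for a pheromone-degrading protease, was higher with FPKM as deposited. The summed level of the 8 M-cell genes was 208.0 to 224.3 in wild type and 143.9 to 172.8 in clr1D, that of the 5 P-cell genes 275.7 to 290.4 and 284.7 to 297.4, and that of 8 sporulation genes 133.5 to 150.4 and 136.3 to 142.1. The M-cell sum contains the fall of mfm2 and does not describe the class. The median log2 change of the 8 M-cell genes was -0.031, and 6 of them were not called. The M-specific cassette rows mat1-Mc and mat3-Mc did not meet the inclusion rule.

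The promoter windows of 3 of these genes are shown because they hold TTCTTTGTT, the core of the TR box bound by Ste11, in capitals. Each window is the 250 bases before the annotated start in ASM294v3 (RefSeq): ste11 chrII:3983126-3983375 on the plus strand, mei2 chrI:4515026-4515275 on the minus strand and rgs1 chrI:679553-679802 on the plus strand. The deposited table, on an earlier build and annotation, starts these genes elsewhere, rgs1 at 679062 in place of 679803, so windows may lie inside its transcripts. The capitals begin 127 bases before the start of ste11, 160 and 138 before mei2, and 187, 128 and 85 before rgs1.
ste11: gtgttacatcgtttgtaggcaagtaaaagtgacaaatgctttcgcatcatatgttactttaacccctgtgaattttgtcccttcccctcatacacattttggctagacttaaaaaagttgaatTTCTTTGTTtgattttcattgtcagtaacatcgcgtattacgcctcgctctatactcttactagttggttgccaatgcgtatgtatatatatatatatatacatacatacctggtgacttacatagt
mei2: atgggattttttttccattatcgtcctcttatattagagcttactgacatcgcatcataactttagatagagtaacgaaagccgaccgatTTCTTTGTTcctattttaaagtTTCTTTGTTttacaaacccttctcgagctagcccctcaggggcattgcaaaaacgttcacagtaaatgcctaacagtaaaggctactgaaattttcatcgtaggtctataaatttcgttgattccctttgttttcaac
rgs1: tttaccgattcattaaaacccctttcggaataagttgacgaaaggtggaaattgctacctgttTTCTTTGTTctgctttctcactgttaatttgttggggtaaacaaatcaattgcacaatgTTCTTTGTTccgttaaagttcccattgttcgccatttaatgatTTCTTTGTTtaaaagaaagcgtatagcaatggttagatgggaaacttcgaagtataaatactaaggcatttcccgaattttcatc
Counted on either strand from 250 bases before to 50 bases after the start, the core was in 8 of the 15 tested mating genes, against 132 of 6490 tested promoters (2.03%) and 238 of 12605 in the annotation (1.89%). It was in 5 of the 7 mating genes that fell and in 3 of the 8 that did not pass. These genes were listed for their part in mating, where Ste11 acts, so their high share describes the list and not clr1 loss. A match is a description of the sequence and not a site of binding, and a part of Ste11 in the falls was not tested. The windows of mei2 and rgs1 also overlap annotated non-coding RNAs.

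Among genes of meiosis calls went in both directions. A list of 14 tested genes held genes of meiotic recombination and other meiotic genes, crs1 among the latter. Of these 14 genes 3 fell, beside 7.86% of all rows, and none rose. The gene hop1, of the chromosome axis, fell from 37.5 ± 2.78 to 30.4 ± 3.61 (adjusted p = 0.0073, and 0.0921 without the block), and crs1 and dmc1 fell by less. None of the 14 was called lower without the block, and 2, 1 and 1 were without pair 1, 2 or 3; dmc1 was lost without the block and without pair 2 or 3 (adjusted p = 0.158, 0.0732 and 0.103). With FPKM as deposited 2 were called higher. Of 113 genes named mug or meu for their level in meiosis, 17 rose and 7 fell, beside 9.01% and 7.86% of all rows. Without the block 8 of the 113 rose and 4 fell. Without pair 1, 2 or 3 the rises numbered 8, 8 and 9 and the falls 3, 4 and 3. With quantile scaling 12 rose and 9 fell. Of 8 sporulation genes 2 rose and 1 fell, beside 9.01% and 7.86% of all rows. meu10 rose from 3.24 ± 0.501 to 5.26 ± 0.493 (adjusted p = 0.0096), spo6 rose slightly (log2 change 0.14 ± 0.03) and spo4 fell from 28.5 ± 1.1 to 23.0 ± 0.978 (adjusted p = 0.0051). The call of spo6 was lost without any 1 pair.

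Of 7 tested hexose transporter genes 3 rose and 2 fell, beside 9.01% and 7.86% of all rows; without the block 1 was called in each direction, and 1 rise was called with quantile scaling. ght5, for the high-affinity glucose transporter, rose from 136, 72.2 and 72.1 to 218, 246 and 149 (log2 change 1.16 ± 0.20, adjusted p = 0.02), with the lowest clr1D library just above the highest wild-type library. ght8 fell from 209, 210 and 189 to 136, 153 and 152 (log2 change -0.46 ± 0.06, adjusted p = 0.0092). ght1 and ght3 rose and ght2 fell by smaller amounts with weaker support: ght1 and ght3 overlapped between the groups, and ght1 was lost without each pair in turn (adjusted p = 0.051 to 0.0908) and ght2 without pair 3 (0.0509). Of 19 glycolysis and fermentation genes, hxk1 rose (244 ± 10.7 to 285 ± 10.9, adjusted p = 0.0071) and 5 fell, beside 7.86% of all rows; 1 was called lower without the block and 3, 2 and 3 without pair 1, 2 or 3. Hexokinase hxk2 fell from 381, 419 and 354 to 296, 337 and 263 (log2 change -0.37 ± 0.03, adjusted p = 0.003; 0.0658 without the block). gpd3, for a glyceraldehyde-3-phosphate dehydrogenase, fell from 279, 303 and 380 to 216, 131 and 177 (log2 change -0.89 ± 0.16, adjusted p = 0.025; 0.0639 and 0.0635 without pairs 2 and 3).

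**Figure D5:**
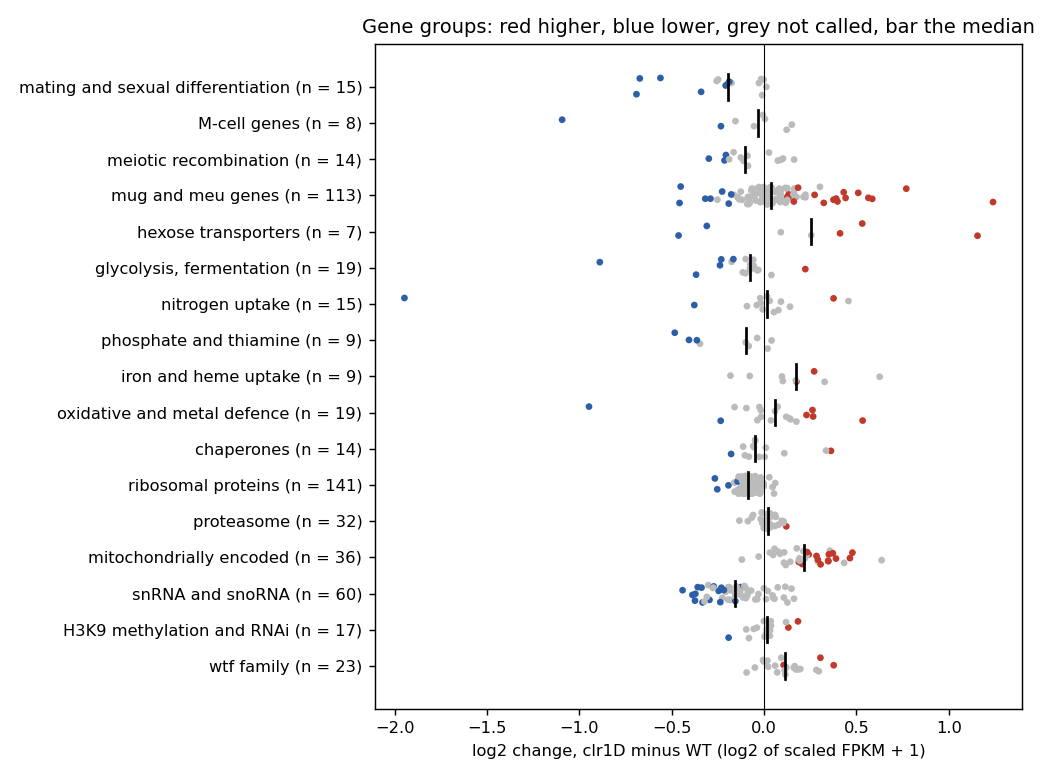
Log2 change, clr1D minus wild type (x axis), of each tested member of 17 gene groups (rows; n is the number tested); red rose, blue fell, grey not called, and the black bar is the group's median. Mating genes lie left of 0, with 7 of 15 called lower, and mitochondrially encoded genes right of it, with 14 of 36 called higher. The group labelled meiotic recombination also holds other meiotic genes.

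In nitrogen and amino acid metabolism, 2 of 10 arginine genes and 3 of 15 genes of amino acid and ammonium uptake were called, near the 16.9% of all rows. Arginase gene car1 rose from 19.1, 28.7 and 28.2 to 33.7, 54.7 and 47.3 (log2 change 0.81 ± 0.04, adjusted p = 0.00059; 0.058 without the block) and the biosynthetic gene arg7 from 13.2 ± 0.403 to 16.2 ± 0.523, while the other 8 did not pass. Of the uptake genes, aat1 rose (117 ± 11.6 to 153 ± 21.5, adjusted p = 0.031) and per1 and isp7 fell. aat1 lies next to alr2 on chromosome II; it lost its call without the block and without pair 2 or 3, and isp7 (adjusted p = 0.043) without the block and without pair 1 or 2. Of 9 phosphate and thiamine genes 3 fell, beside 7.86% of all rows (1 without the block), and none rose. The acid phosphatase gene pho1 fell from 238, 194 and 345 to 177, 129 and 253 (log2 change -0.48 ± 0.04, adjusted p = 0.0023), and pho84, the phosphate transporter beside it, from 241, 132 and 212 to 168, 111 and 155 (adjusted p = 0.011). In each of these genes every clr1D library was below its wild-type partner although the groups overlapped, and neither was called without the block (adjusted p = 0.321 and 0.332). thi9, for a thiamine transporter, fell from 13.5 ± 0.539 to 10.3 ± 0.458 (adjusted p = 0.012).

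Of 19 oxidative and metal defence genes 4 rose and 2 fell, beside 9.01% and 7.86% of all rows. The rises numbered 1 without the block, 2, 3 and 3 without pair 1, 2 or 3, and 7 with FPKM as deposited or by limma-voom. srx1, for sulfiredoxin, rose from 46.5, 47.4 and 61.0 to 71.8, 74.4 and 77.8 (log2 change 0.53 ± 0.06, adjusted p = 0.0073), and obr1 fell from 758, 746 and 786 to 396, 384 and 406 (log2 change -0.95 ± 0.03, adjusted p = 0.0001). The obr1 groups were each tight and far apart. Of 14 chaperone genes 1 rose and 1 fell, near the 9.01% and 7.86% of all rows. hsp16, a small heat shock protein, rose from 31.9 ± 1.25 to 41.4 ± 4.87 (adjusted p = 0.012) and mas5 fell. Of 9 iron genes 2 rose, beside 9.01% of all rows: sib2 and sib1, for siderophore synthesis, by 0.27 and 0.18 on the log2 scale. None of the 9 was called without the block or without pair 1 or 2, and 5 were called higher without pair 3, sib1 not among them (adjusted p = 0.131); sib1 was also lost in the fits of 12 and 18 libraries, with no filter and with quantile scaling (0.053 to 0.0636). Near the right end of chromosome II ecl3, whose product extends chronological lifespan, fell from 40.9, 29.8 and 44.0 to 24.7, 13.7 and 21.3 (log2 change -0.93 ± 0.07, adjusted p = 0.0022).

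Calls among the listed mitochondrially encoded RNAs were rises, and those among small nuclear and nucleolar RNAs were falls. The mitochondrial list holds 36 of the 38 tested rows of that genome. Of these 36 rows 14 rose, beside 9.01% of all rows, and none fell, with a median log2 change of 0.216 (0.258 unscaled, 0.249 with quantile scaling), 7 without the block and 9, 11 and 4 without pair 1, 2 or 3. The mitochondrial transcript SPMIT.01 rose from 3017, 3073 and 3014 to 3594, 3465 and 3712 (log2 change 0.24 ± 0.04, adjusted p = 0.025), and 11 of the 14 were transfer RNAs. These rows overlap or lie in 1 polycistronic genome and are not independent, and in bulk RNA more mitochondria per cell and more RNA per mitochondrion cannot be told apart. Of 60 small nuclear and nucleolar RNAs none rose and 16 fell, beside 7.86% of all rows, with a median of -0.156 (-0.114 unscaled, -0.128 with quantile scaling), 6 without the block and 13, 8 and 6 without pair 1, 2 or 3. snoZ16 fell most among them, from 212, 199 and 248 to 170, 158 and 156 (log2 change -0.44 ± 0.07, adjusted p = 0.019). How well such short RNAs are captured depends on fragment size, and its part in this difference, or in the rises of mitochondrial transfer RNAs, was not tested. sno530, a separate non-coding row by its ID, fell from 149, 129 and 171 to 74.0, 70.6 and 73.8 (log2 change -1.02 ± 0.07, adjusted p = 0.0012).

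Non-coding RNAs as a class rose more often than they fell, 209 against 113 of 1435 (14.6% and 7.87%). Over all rows the shares were 9.01% and 7.86%, so the share of falls was near that of all rows. Of these RNAs 7 had passed the inclusion rule through clr1D alone and had to differ. Under FPKM of at least 1 in all 6 libraries 192 rose and 114 fell. With quantile scaling the split was 156 against 127 and the class median turned from 0.0152 to -0.0141. Among the 350 that overlap no tested protein-coding gene, 77 rose (22.0%) and 32 fell (9.14%); among the 1085 that do overlap one, 132 rose (12.2%) and 81 fell (7.47%). Of these overlapping RNAs, 67 of the 132 rises and 61 of the 81 falls overlap a protein-coding gene called in the same direction, and their reads cannot be told apart from its own.

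Of 17 genes of H3K9 methylation and RNAi 3 were called, near the 16.9% of all rows: rik1 and rdp1 rose by 0.18 ± 0.03 and 0.13 ± 0.03 on the log2 scale, and epe1, whose product opposes heterochromatin, fell from 17.0 ± 0.566 to 14.8 ± 0.831 (log2 change -0.19 ± 0.04, adjusted p = 0.026); all 3 lost their calls when any 1 pair was left out. None of 5 other histone deacetylase genes, 7 genes of telomere end protection or 10 genes of core histones and H2A.Z passed in the fit used here. None of these was at an unadjusted p under 0.05 and none was called by limma-voom on the recovered reads. In other settings the deacetylase gene hst4 was called higher with FPKM as deposited, and the histone genes hta1 and hta2 lower without pair 3. The wtf meiotic drivers, a family of similar copies, gave 3 rises of 23 beside 9.01% of all rows (wtf5, wtf14 and wtf20), none of them with any 1 pair left out, and the family's median of 0.111 became -0.0035 with quantile scaling. Of 141 cytosolic ribosomal protein genes 6 fell (4.26%, beside 7.86% of all rows) and none rose. Those called lower numbered 27 in the 12-library fit, 11 by limma-voom, 2 with FPKM as deposited or quantile scaling, 1 without the block and 2, 5 and 2 without pair 1, 2 or 3, and the median over all 141 of -0.0845 became -0.0436 as deposited and -0.0322 with quantile scaling. Of 32 proteasome genes 1 rose (3.12%, beside 9.01% of all rows), 0 without the block or any 1 pair and 5 with FPKM as deposited. The marker genes ade6, arg3, his3 and leu1 did not pass in any setting run, with log2 changes from -0.07 ± 0.03 (ade6) to 0.14 ± 0.08 (arg3), and ura4 was listed at 0 in all 6 libraries.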

How the data were processed

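The deposited table holds the authors' FPKM for each row in each library. Per the submitters' processing notes reads were aligned with GSNAP to ASM294v2; the counting program is not given in the sources used here. Transcript length is the deposited table's own column. FPKM times length came in whole multiples of 1 read (100% of values checked, tolerance 0.1), which gave the depths, on which intervals cover counting error only. The table holds 3 further sample columns tied to no sample; they were not used. Gene names and sequences came from RefSeq ASM294v3, in which 6860 IDs matched and 1981 of 6843 nuclear rows have the same start and end.

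FPKM was divided by each library's median ratio to the geometric mean over 6544 rows, and log2(scaled FPKM + 1) was fitted with limma 3.58.1 (lmFit, eBayes with trend) in R 4.3.3 with genotype and replicate number; p values are 2-sided with Benjamini-Hochberg adjustment. Same-numbered wild-type and clr1D libraries share a name prefix and deviated together from their group means (correlations over rows 0.58, 0.36 and 0.33), so the numbers pair the samples. Whether replicates were separate cultures beyond being called biological replicates is not stated. The clr2D and clr3D contrasts used 12 libraries. The script was tested on simulated data.

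Members, gene lists and rules were chosen with earlier results of these data known. Named were the SHREC genes, the 12 largest rises and falls, the 2 largest rises and falls of each list, and all lysine, marker and telomere helicase genes; neighbours, the remaining members of small lists, the genes that differed from clr2D, and mae1, mae2 and abp2 were chosen after their values were seen. The list of small RNAs shares snR92 with the mating-type region. The histidine list (2 of 7 fell), glutamate list (1 of 4), peroxins (2 of 13) and uracil-regulated genes (0 of 3), beside 7.86% of all rows, showed no other change. The number of histidine falls was 0 without the block, with FPKM as deposited, with quantile scaling and without any 1 pair. his8 and his9 were not found under these names. Other software was Python 3.11.15, pandas 2.3.3, NumPy 2.4.6 and matplotlib 3.10.9.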

Additional observations from a re-analysis of the deposited data

How the results depend on the processing

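Of 92 called genes named by the rule, all kept their direction, 58 kept their call in the alternatives other than a left-out pair, and 51 in all, counting for each gene the alternatives that gave it a value; 14 of the 92 have none under FPKM of at least 1 in all 6 libraries. Without the replicate block 543 rows were called (312 higher, 231 lower; 541 shared with the 1122) and 275 of the 497 list members. The fit of 12 libraries with the block called 1828 (935 higher, 893 lower). FPKM as deposited moved the split to 994 higher and 325 lower. Without replicate 1, 2 or 3 the calls were 507, 658 and 547 (264, 367 and 311 higher; 243, 291 and 236 lower), and the list members 277, 341 and 298. The remaining alternatives (18 libraries, quantile scaling, pseudocount 0.1, no filter, FPKM of at least 1 in all 6 libraries, and limma voom on recovered reads) gave 1029 to 1485 calls. Without the block 31 rows differed from clr2D and 1970 from clr3D. Values that changed sign were not called where they did: the log2 change of mit1 was -0.0188 with quantile scaling and -0.0103 without replicate 1, those of lys2 and lys3 -0.0488 and -0.0428 without replicate 3, and that of lys9 0.0401 as deposited, 0.0443 with quantile scaling and 0.0275 without replicate 1. The cause of these shifts was not tested. Precision is limited by 3 pairs, and for rows near an FPKM of 1 by few reads.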
